A study of Homo sapiens with 6 samples.

Results

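The genes described here are the protein-coding genes whose symbols begin with KLHL or KLHDC, followed by a number and, for some KLHDC genes, the letter A or B. These symbols stand for Kelch-like and Kelch domain-containing, and the family holds 47 of the 63241 genes in the deposited table, of which 37 are KLHL and 10 are KLHDC genes. The members were taken by symbol, but the family itself was chosen by a measured value, the counts of KLHDC7B, which showed the largest fitted rise of any protein-coding gene in the treated cells. The values of KLHDC7B are therefore given as a description with no test, and nothing is read from the number of family members called.

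RNA was sequenced from wild-type PANC-1 cells, an established line from a human pancreatic carcinoma, in 3 libraries from cells given 20 µM Schisandrin B for 24 h and 3 from cells given a vehicle of under 0.1% DMSO for the same time. Schisandrin B is a lignan of Schisandra fruit, and the title of the series places the comparison in the study of ferroptosis and reduced proliferation. Both groups share the line, the medium and the solvent. The labels do not say whether replicates were separate cultures, so p-values measure the spread between these libraries, which may be technical, and a single cell line limits the groups as a model.

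Library totals ran from 13656826 to 18289410 counts. Of the markers of a ductal epithelial line, KRT8, KRT18 and KRT19 were present in vehicle at a mean of 345, 303 and 66.2 FPKM (n = 3), fragments scaled to transcript length and library size, while KRT7 and EPCAM stood at 0.0771 and 0.164 FPKM. VIM, a mesenchymal filament gene, stood at 4925 FPKM. Of the markers of other cell types, the pancreatic genes PRSS1, CPA1, INS and GCG had 0 counts in every library, and PTPRC, CD3E, PECAM1 and VWF had at most 12 counts in any library. CD68 and CDH5 were higher, at 13.0 and 2.93 FPKM in vehicle. In Schisandrin B these genes stood at 27.7 and 0.337 FPKM, and KRT8, KRT18 and KRT19 at 130.3, 191 and 33.2 FPKM. The part of these differences in the results was not tested. In bulk RNA, fewer cells of a type and less RNA per cell cannot be told apart.

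The Kelch repeat is a short motif that folds into one blade of a beta-propeller, a disc-shaped surface that binds other proteins. Most KLHL proteins also carry a BTB domain, which docks on the scaffold CUL3, so that the propeller brings a substrate to a ubiquitin ligase. KLHDC proteins have the propeller without the BTB domain. Several of them, such as KLHDC2, KLHDC3 and KLHDC10, are receptors of CUL2 ligases that recognise the last residues of a protein, known as C-degrons. The best known BTB-kelch protein, KEAP1, holds the antioxidant factor NRF2 in check and is not among the 47 by symbol.

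KLHDC7B (ENSG00000130487, chromosome 22, 50545899 to 50551023 on GRCh38, forward strand) was close to silent in vehicle and moderately expressed in Schisandrin B. Its RefSeq promoter window on GRCh38.p14, from 250 bases before to 50 after the start, is chr22:50545649-50545948 on the forward strand. It is shown beside those of KLHL29, the member with the next largest rise among those tested (chr2:23384929-23385228, forward strand), and KLHDC8B, a member that fell (chr3:49171348-49171647, forward strand), because they differ in base composition and in the motifs they hold. Capitals mark matches, on either strand, to the motifs listed after the sequences, other than the GC box.
KLHDC7B: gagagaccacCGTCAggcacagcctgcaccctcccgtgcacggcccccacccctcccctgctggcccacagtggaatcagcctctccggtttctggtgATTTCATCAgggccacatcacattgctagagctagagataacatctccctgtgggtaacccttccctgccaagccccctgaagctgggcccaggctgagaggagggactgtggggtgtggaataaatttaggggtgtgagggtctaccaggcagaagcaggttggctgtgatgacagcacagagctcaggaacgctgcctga
KLHL29: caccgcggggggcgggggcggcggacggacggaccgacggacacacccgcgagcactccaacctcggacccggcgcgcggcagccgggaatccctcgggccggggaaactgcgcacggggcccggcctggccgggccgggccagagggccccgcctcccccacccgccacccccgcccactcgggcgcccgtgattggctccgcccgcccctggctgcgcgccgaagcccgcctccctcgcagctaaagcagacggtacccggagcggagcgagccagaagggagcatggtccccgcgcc
KLHDC8B: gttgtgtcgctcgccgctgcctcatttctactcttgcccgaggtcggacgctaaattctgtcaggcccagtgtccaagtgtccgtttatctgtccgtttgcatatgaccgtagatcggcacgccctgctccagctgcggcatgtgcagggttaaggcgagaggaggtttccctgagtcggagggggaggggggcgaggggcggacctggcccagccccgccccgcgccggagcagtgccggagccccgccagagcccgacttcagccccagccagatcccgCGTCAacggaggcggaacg

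The KLHDC7B window held fewer CpG dinucleotides than most. It held 5, against 43 for KLHL29, 28 for KLHDC8B and a median of 14 over the 35116 windows of the RefSeq table. Of all windows, 29.6% held fewer than 5, so a count this low is common. The motifs searched, on both strands, were the CRE (TGACGTCA), its half-site (TGACG), the UPRE core (TGACGTGG), the ERSE (CCAAT and CCACG with 9 bases between them), the C/EBP-ATF element (TGATGNAAT), the core of the antioxidant response element (TGACNNNGC), the E-box (CACGTG), the AP-1 site (TGANTCA), the TATA box core (TATAAA) and the GC box (GGGCGG). The half-site lies inside the CRE and the UPRE core. In the KLHDC7B window the C/EBP-ATF letters matched once, on the reverse strand, beginning 152 bases before the start, and the half-site matched once, beginning 240 bases before it. The C/EBP-ATF letters occur in 0.991% of all windows and in 1 of the 53 windows matched to 41 of the 47 members, that of KLHDC7B. The half-site occurs in 24.6% of all windows and in 22 of the 53. The KLHL29 window held the GC box alone, which 45.0% of all windows and 27 of the 53 hold, and KLHDC8B held the GC box and a half-site. None of the 53 held the CRE, the UPRE core or the ERSE (1.85%, 0.729% and 0.0769% of all windows). The antioxidant core was in 8 of the 53 (13.3% of all), the AP-1 site in 5 (7.71%), the E-box in 4 (7.26%) and the TATA core in 7 (11.5%). A match describes letters and shows no binding.

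Each vehicle library held 1 count of KLHDC7B, and the Schisandrin B libraries held 781, 688 and 577. In CPM, counts relative to library size, scaled by the trimmed mean of M-values (TMM), the Schisandrin B libraries stood at 47.8, 48.0 and 41.6. The groups lay far apart, and the 3 treated libraries were close to each other. Over the groups, 3 counts in vehicle stood against 2046 in Schisandrin B, which on TMM-scaled totals is 700.2 times the rate (95% interval 239 to 3398, exact binomial). No source used here mentions molecular identifiers, so the interval covers counting error alone, and it is no test of the rise. The authors' deposited table gives KLHDC7B a fold of 679. Next in order of fitted fold among protein-coding genes came ITGAX, an integrin subunit, with 0 counts in every vehicle library and 14, 15 and 17 in Schisandrin B.

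Per length, KLHDC7B went from among the lowest to the upper part of the family. Its deposited FPKM were 0.0212, 0.00738 and 0.0159 in vehicle and 9.54, 10.4 and 7.35 in Schisandrin B. By mean FPKM it ranked 35 of 47 in vehicle and 11 in Schisandrin B, where its 9.09 ± 1.56 (SD, n = 3) was close to the 8.99 ± 0.594 of KLHL29. In Schisandrin B, 71.1% of all 20073 protein-coding genes had a lower mean FPKM than KLHDC7B. KLHDC7B took 3.71% to 4.12% of the counts of the 47 genes in the treated libraries. Its closest namesake, KLHDC7A, had 0 counts in all 6 libraries, which allows up to 0.0645 CPM in vehicle and 0.0682 CPM in Schisandrin B (3 counts of the group's total).

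GENCODE release 29 on GRCh38 places 3 transcripts at KLHDC7B. The longest, KLHDC7B-203, is a single exon from 50545891 to 50551023 with 1235 codons, and KLHDC7B-201 is a single exon from 50548033 to 50551022 with 594 codons. KLHDC7B-202 carries no coding sequence. The counts are per gene and do not say which transcript was made.

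**Figure D1:**
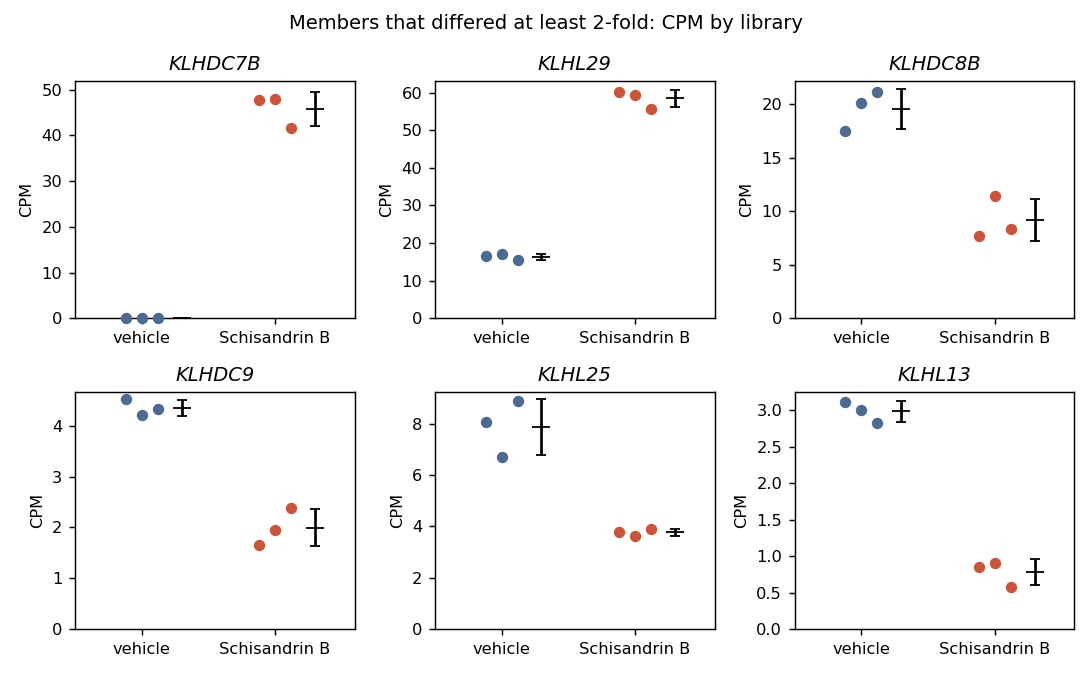
CPM (TMM-scaled, linear axes from 0) of KLHDC7B and of the 5 other members that differed at least 2-fold, for each vehicle and Schisandrin B library; points are libraries and the bar beside them is the mean ± SD (n = 3). The treated libraries of KLHDC7B sit at 41.6 to 48.0 CPM against 1 count each in vehicle. In no panel do the groups overlap, but these genes were picked for their difference. The groups did not overlap in 9533 of the 12472 tested protein-coding genes either.

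Genes around KLHDC7B moved in both directions. Within 50 kb of it, 16 other genes were listed and 10 were tested, of which 5 rose, 3 fell and 2 passed in neither direction by edgeR (quasi-likelihood, Benjamini-Hochberg adjusted p under 0.05). Over all 15773 genes tested, 35.0% were higher and 35.2% lower, 70.2% in all. The largest rises nearby were in CPT1B, the muscle form of the carnitine palmitoyltransferase that carries fatty acids into mitochondria, and in the readthrough gene CHKB-CPT1B. CPT1B went from 4.49 ± 0.934 to 13.1 ± 2.56 CPM (SD, n = 3 each; log2 fold change 1.55, SE 0.18, adjusted p = 9.26e-07). CHKB-CPT1B rose 4.64-fold (adjusted p = 9.87e-04), and because these 2 genes share exons, the split of reads between them is uncertain.

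TYMP, thymidine phosphorylase, rose 2.67-fold (adjusted p = 2.06e-06) and CIMAP1B rose 2.43-fold (adjusted p = 8.96e-05). These 2 genes overlap each other in position. SCO2, given below, overlaps TYMP and the more abundant NCAPH2, so the split of reads among them is uncertain. LMF2, a lipase maturation factor, rose by a log2 fold change of 0.12 (adjusted p = 0.0414). NCAPH2, a condensin II subunit, fell 2.29-fold (adjusted p = 3.48e-11), MAPK8IP2, a scaffold of JNK signalling, fell 1.46-fold (adjusted p = 2.94e-07) and SCO2, a copper chaperone of cytochrome oxidase, fell 1.34-fold (adjusted p = 0.00463). CHKB, choline kinase beta (adjusted p = 0.0601), and CHKB-DT (adjusted p = 0.118) passed in neither direction. The nearest genes were too low to test. SYCE3, a meiotic synaptonemal complex gene whose 3′ end lies 88 bases past that of KLHDC7B on the opposite strand, gave 2, 2 and 4 counts in the vehicle libraries and 3, 4 and 5 in the treated ones. The divergent transcript KLHDC7B-DT had 1, 0 and 0 counts in vehicle and 2 in each Schisandrin B library.

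**Figure D2:**
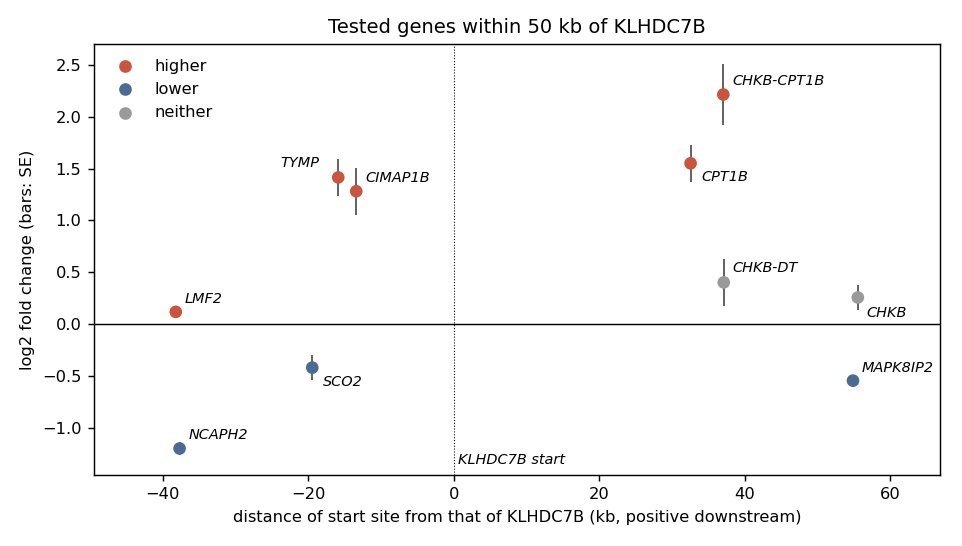
Log2 fold change (Schisandrin B over vehicle, bars SE) of the 10 tested genes within 50 kb of KLHDC7B, against the distance of their start sites from its own in kb. Rises and falls lie on both sides, and CPT1B and CHKB-CPT1B have the largest rises among these neighbours.

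Among the other 46 members, 29 had enough counts to be tested. Of these, 11 were higher in Schisandrin B, 13 lower and 5 in neither direction, by edgeR's test with adjustment across the whole table, in which 70.2% of genes were called. Beside this, 73.4% of the 12472 protein-coding genes tested were called, 32.1% higher and 41.4% lower. The median log2 fold change of the 29 was -0.14 and that of all protein-coding genes tested was -0.08. A log2 fold change within 0.5 of 0 was seen in 15 of the 29, of which 11 were called, and in 6437 of the 12472 protein-coding genes. The CPM of the 2 groups did not overlap in 25 of the 29 and in 9533 of the 12472, so a lack of overlap was common. One member rose at least 2-fold and 4 fell at least 2-fold, where 10.5% and 9.88% of tested protein-coding genes did. KLHL13, counted among the 13 lower, the 25 without overlap and the 4, was tested only because of its vehicle level. Its Schisandrin B counts alone would have failed the filter, and the remaining 28 would have passed on either group alone. Without KLHDC7B, the family's counts summed to 1008 to 1031 CPM of the library totals in vehicle and 1097 to 1146 in Schisandrin B.

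**Figure D3:**
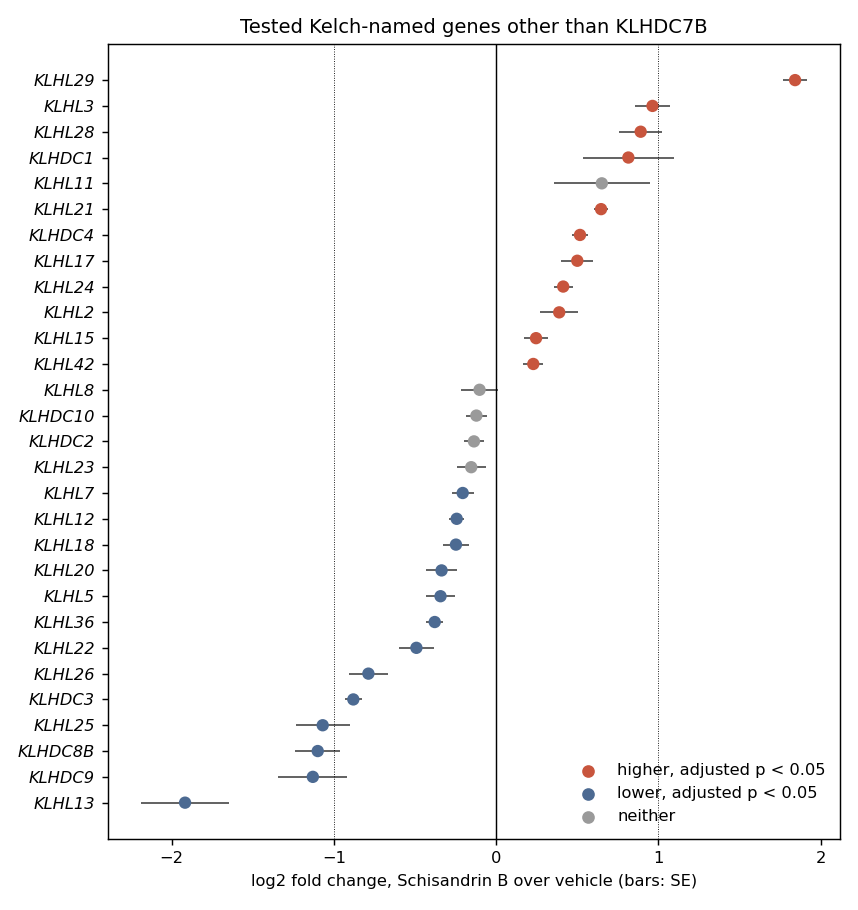
Log2 fold change (Schisandrin B over vehicle) with its SE for the 29 tested members other than KLHDC7B, ordered by value; red and blue mark genes higher and lower at an adjusted p below 0.05, grey those in neither direction, and dotted lines 2-fold. KLHL29 at 1.84 is the highest, and the lowest point, KLHL13 at -1.92, is the member tested only through its vehicle level.

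KLHL29 (ENSG00000119771, chromosome 2, 23385179 to 23708611 on GRCh38) had the largest rise of the tested members. It stood at 16.6, 16.9 and 15.4 CPM in vehicle and 60.2, 59.4 and 55.8 in Schisandrin B. The groups were far apart and each was tight. The rise was 3.59-fold, or 1.84 ± 0.07 (SE) in log2 units (adjusted p = 7.40e-13), and on that scale lay between 1.75 and 1.92 under every other setting tried.

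The members with roles in cell division went in both directions. KLHL21 and KLHL13 belong, with KLHL9, to the CUL3 adaptors that ubiquitinate Aurora B kinase, which is needed for chromosome alignment and cytokinesis. KLHL21 (chromosome 1, 6590724 to 6614607) gave 1480, 1605 and 2077 counts in the vehicle libraries and 2833, 2641 and 2381 in the treated ones, with no overlap. It rose 1.57-fold (log2 fold change 0.65, SE 0.05, adjusted p = 1.17e-09). PHF13, which overlaps it in position on the opposite strand, fell by 0.50 on the log2 scale. No source used here says whether counting used the strand, so reads of such pairs cannot be told apart with certainty. The same limit holds for KLHL18 and KLHL22. On the opposite strand they overlap KIF9 and a pseudogene, with counts of 14.5% and 12.5% of their own. KLHL11 overlaps a long noncoding RNA gene on its own strand, with 39.1% of its counts.

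KLHL13 (chromosome X, 117897813 to 118117340) gave 42, 43 and 51 counts in the vehicle libraries and 14, 13 and 8 in the treated ones. These low counts did not overlap, and the treated level was 3.78-fold lower (log2 fold change -1.92, SE 0.27). No p is given, because the gene was tested only through the group in which it was high. KLHL22, which removes the kinase PLK1 from kinetochores and also targets DEPDC5, a brake on mTORC1, went from 24.1 ± 2.89 to 17.1 ± 1.76 CPM (SD, n = 3 each; log2 fold change -0.49, adjusted p = 6.27e-04). Limma on the deposited FPKM did not call it (adjusted p = 0.0897). KLHL18, an adaptor for Aurora A, fell by 0.25 (adjusted p = 0.0112), a call that was lost at a threshold of 0.01, among genes of at least 5 CPM (adjusted p = 0.0697) and in FPKM (adjusted p = 0.0773). KLHL42, which targets the microtubule-severing enzyme katanin, rose by a log2 fold change of 0.23 (adjusted p = 0.0028), which DESeq2 did not call (adjusted p = 0.0606).

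KLHDC8B, a midbody protein of cytokinesis, was at 17.5, 20.1 and 21.1 CPM in vehicle and 7.71, 11.4 and 8.36 in Schisandrin B. All treated libraries lay below all vehicle libraries. The fall was 2.14-fold (log2 fold change -1.10, SE 0.14, adjusted p = 2.77e-06).

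KLHL9, the third adaptor of the Aurora B group, gave 0, 2 and 1 counts in the vehicle libraries and 0, 4 and 4 in the treated ones, so that no change was detectable at this depth. It lies on chromosome 9 at 21329665 to 21335404. As background, PANC-1 is known to have lost CDKN2A, a tumour suppressor gene of the same chromosome band. Of 42 other genes listed within 500 kb of KLHL9, 36 had 0 counts in all libraries and no gene had more than 7 in total. Of these 42, 19 were protein-coding, and the 16 of them with 0 counts were all interferon genes. The protein-coding genes that are not interferons, FOCAD, HACD4 and MTAP, gave 5, 1 and 2 counts in total. CDKN2A itself, beyond that window, had 2 counts in the 6 libraries together and its neighbour CDKN2B 0. These genes were looked up after the values of KLHL9 had been seen, and copy number was not tested.

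Adaptors that act on kinases, traffic, translation and the cytoskeleton were all expressed, and of these 10 genes 5 rose, 4 fell and 1 passed in neither direction, where 32.1% of tested protein-coding genes were higher and 41.4% lower. KLHL3, which with KLHL2 degrades WNK kinases and is mutated in familial hyperkalaemic hypertension, stood at 12.2, 9.81 and 11.1 CPM in vehicle and 19.8, 23.3 and 21.6 in Schisandrin B. The groups did not overlap, and the gene rose 1.95-fold (log2 fold change 0.96, SE 0.11, adjusted p = 5.26e-07). KLHL2 rose by a log2 fold change of 0.39 (adjusted p = 0.00689), which DESeq2 did not call (adjusted p = 0.0918). TMEM192, which overlaps KLHL2 on the opposite strand with more counts, had a log2 fold change of 0.60.

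KLHL25, whose known targets are the translation repressor 4E-BP1 and the lipid enzyme ACLY, was at 8.09, 6.72 and 8.89 CPM in vehicle and 3.80, 3.63 and 3.89 in Schisandrin B. No treated library reached the vehicle range. It fell 2.10-fold (log2 fold change -1.07, SE 0.17, adjusted p = 2.08e-05).

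KLHL24, which degrades keratin 14 and is mutated in a blistering skin disease, rose 1.33-fold (adjusted p = 9.10e-06), and KLHL17, an actin-binding neuronal protein, rose 1.41-fold (adjusted p = 2.19e-04). KLHL15, an adaptor for a regulatory subunit of the phosphatase PP2A, rose by a log2 fold change of 0.25 (adjusted p = 0.00621), which DESeq2 did not call (adjusted p = 0.0929). KLHL12, which ubiquitinates the COPII coat protein SEC31 and so enlarges vesicles that carry collagen, fell from 84.8 ± 1.72 to 71.7 ± 0.614 CPM (SD, n = 3 each; adjusted p = 2.40e-04). This was a fall by 0.24 on the log2 scale. KLHL20, an adaptor for the kinases DAPK1 and ULK1 and for PML, fell by 0.34 (adjusted p = 0.00496). KLHL7, mutated in retinitis pigmentosa, fell by 0.21 (adjusted p = 0.0135), and that call was lost without Schisandrin B replicate 2 (adjusted p = 0.0602), with upper-quartile scaling (adjusted p = 0.0731), among genes of at least 5 CPM (adjusted p = 0.114) and at a threshold of 0.01. KLHL8 had a log2 fold change of -0.10 (adjusted p = 0.448).

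The C-degron receptors did not move together. KLHDC3 (chromosome 6, 43014103 to 43021298), the member with the highest FPKM in vehicle, stood at 34.6, 33.8 and 36.5 FPKM there and at 20.5, 19.2 and 19.3 in Schisandrin B. Its groups were well apart, and its counts fell 1.84-fold (log2 fold change -0.88, SE 0.05, adjusted p = 1.93e-10). MEA1, on the opposite strand and overlapping it, fell by 0.69 on the log2 scale. KLHDC1 rose 1.76-fold from a low level (log2 fold change 0.82, SE 0.28, adjusted p = 0.016). Its call was lost without Schisandrin B replicate 1 (adjusted p = 0.0646), without Schisandrin B replicate 2 (adjusted p = 0.0712), at a threshold of 0.01 and in DESeq2 (adjusted p = 0.151). KLHDC2 (log2 fold change -0.14, adjusted p = 0.0535) and KLHDC10 (-0.12, adjusted p = 0.11) were called in neither direction. KLHDC2, which overlaps the more abundant NEMF on the opposite strand, was called lower without vehicle replicate 3 (adjusted p = 0.035) and without a low-count filter (adjusted p = 0.0199) and KLHDC10 without Schisandrin B replicate 1 (adjusted p = 0.0128).

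Of the remaining KLHDC genes, KLHDC4 (chromosome 16, 87696485 to 87765992) stood at 18.2, 18.9 and 22.1 FPKM in vehicle and 35.8, 29.6 and 28.3 in Schisandrin B, where it had the highest mean FPKM of the family. Its counts rose 1.43-fold (log2 fold change 0.52, SE 0.05, adjusted p = 1.17e-07), and the groups did not overlap on either scale. KLHDC9 (chromosome 1, 161098361 to 161100346) gave 61, 60 and 78 counts in the vehicle libraries and 27, 28 and 33 in the treated ones. It fell 2.19-fold without overlap (log2 fold change -1.13, SE 0.21, adjusted p = 1.6e-04).

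The last tested KLHL genes have no substrate described here. KLHL28 rose 1.85-fold (adjusted p = 1.27e-05), and TOGARAM1, which overlaps it on the opposite strand with more counts, had a log2 fold change of 0.01. KLHL26 fell 1.73-fold (adjusted p = 1.55e-05), KLHL5 fell by 0.34 on the log2 scale (adjusted p = 0.00221) and KLHL36 by 0.38 (adjusted p = 4.75e-06). For KLHL36 the deposited FPKM stood level, at 12.2, 12.1 and 11.8 in the vehicle libraries and 11.5, 12.1 and 12.1 in the treated ones, and limma on FPKM did not call it (adjusted p = 0.866). KLHL5 was not called in FPKM either (adjusted p = 0.246). KLHL23 had a log2 fold change of -0.15 (adjusted p = 0.141), shares its strand and position with PHOSPHO2, and was called lower without vehicle replicate 2 (adjusted p = 0.0403). KLHL11, a target of autoantibodies in paraneoplastic disease, gave 96, 97 and 191 counts in the vehicle libraries and 291, 160 and 135 in the treated ones. These ranges overlap, and it was not called (log2 fold change 0.65, adjusted p = 0.0967). It was called higher without vehicle replicate 3 (adjusted p = 0.0178) or Schisandrin B replicate 3 (adjusted p = 0.0312) and by DESeq2 (adjusted p = 0.0292).

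Per length, the members highest in vehicle were KLHDC3, KLHL12, KLHDC2, KLHL21 and KLHDC4, with means of 19.7 to 35.0 FPKM. The means of KLHDC2 (20.3 ± 2.21), KLHL21 (19.8 ± 0.219) and KLHDC4 (19.7 ± 2.11) differed by less than their SD (n = 3 each). In Schisandrin B the order was KLHDC4 at 31.2 ± 4.00, KLHL21 at 30.0 ± 3.67, KLHDC2 at 20.6 ± 1.23 and KLHDC3 at 19.6 ± 0.712. The first pair lay within their SD of each other, as did KLHDC2 and KLHDC3. The 24 other tested members lay between 0.429 FPKM, for KLHDC1, and 16.1 FPKM, for KLHL7, in vehicle.

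The 7 members grouped here as B cell, neuron, muscle or spermatid genes were silent or nearly so. KLHL17, also neuronal, was placed with the adaptors above and was expressed. Of the 17 untested genes, 9 had 0 counts in every library, namely KLHDC7A, KLHDC8A, KLHL1, KLHL6, KLHL30, KLHL32, KLHL34, KLHL38 and KLHL40. KLHL6 and KLHL14 are B cell genes, KLHL1 is neuronal, KLHL31, KLHL40 and KLHL41 belong to muscle and KLHL10 to spermatids. KLHL14 and KLHL33 had 1 count each, in Schisandrin B. Summed over each group, KLHL35 gave 22 vehicle and 15 treated counts, KLHL4 had 10 and 3, and KLHL41 had 8 and 2.

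Counts of KLHL10 and KLHL31 were low but higher in the treated group. KLHL10 gave 2, 3 and 6 counts in the vehicle libraries and 14, 9 and 22 in the treated ones, and KLHL31 had 3, 4 and 2 against 13, 5 and 12. The groups did not overlap in either gene. In CPM they did not overlap in KLHL4 either, which was lower in the treated group. Without the low-count filter edgeR gave KLHL10 an adjusted p of 0.00333 and KLHL31 an adjusted p of 0.0237. For KLHL4 and KLHL41, both lower in the treated group, it gave 0.181 and 0.206. The authors' deposited table gives KLHL10 an adjusted p of 0.0247 and KLHL31 one of 0.126, which does not pass. KLHL10 overlaps NT5C3B on the opposite strand, with 3916 vehicle and 2955 treated counts, and KLHL31 overlaps LINC01564, with 0 and 31.

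**Figure D4:**
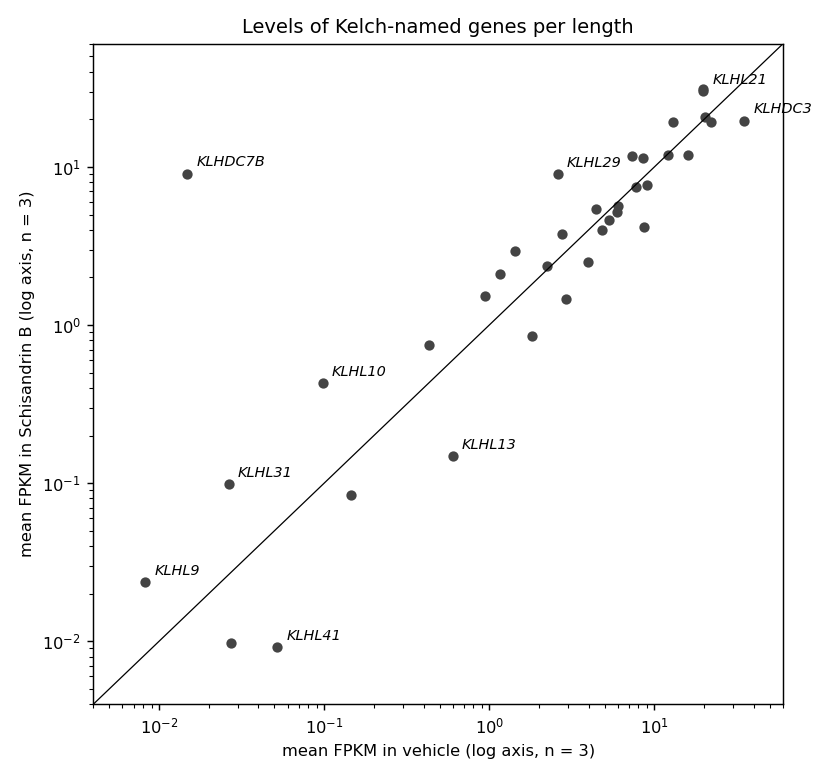
Mean deposited FPKM (n = 3) in vehicle and Schisandrin B, on log axes, for each member with a mean above 0 in both groups; the line marks equal levels. KLHDC7B lies far above the line, at 0.0148 and 9.09 FPKM, and the well expressed members lie near it.

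Among the tested genes listed for the ligase machinery that serves these adaptors, falls outnumbered rises in Schisandrin B. Of 24 tested genes of the CUL3 core and of neddylation, the attachment of NEDD8 that activates cullins, 17 fell, 4 rose and 3 passed in neither direction, with a median log2 fold change of -0.46. This is 87.5% called, where 73.4% of tested protein-coding genes were called, 32.1% higher and 41.4% lower. COPS6 fell from 195 ± 4.83 to 104 ± 4.06 CPM (SD, n = 3 each; adjusted p = 1.20e-11). COPS3 fell 1.89-fold and GPS1 1.73-fold, and all 3 encode subunits of the COP9 signalosome, which removes NEDD8 from cullins. The list includes this complex. Every subunit of it listed fell, and these subunits made up most of the 17, so the count and the median lean on them. Outside the complex the falls were in CUL3, RBX1, UBA3, NAE1, UBE2M, CAND1 and DCUN1D1. NEDD8, UBE2F and SENP8 passed in neither direction. CUL3 itself fell by 0.44 on the log2 scale (adjusted p = 2.53e-07), and its RING partner RBX1 by 0.99 (adjusted p = 3.27e-08). The rises were in the DCUN1D genes, which promote neddylation, with DCUN1D2 at 1.30-fold, DCUN1D5 and DCUN1D4 at 1.17-fold each and DCUN1D3 at a log2 fold change of 0.47. DCUN1D1 fell by 0.29. In DESeq2 1 gene of this list was called higher.

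Of 14 genes of the CUL2 and CUL5 ligases and their receptors, 9 fell and 3 rose (85.7% called, 73.4% over protein-coding genes), with a median of -0.24 where that of protein-coding genes was -0.08. LRR1, a CUL2 receptor that unloads the replicative helicase, fell 3.04-fold (adjusted p = 2.25e-09). ZYG11B, a receptor for N-terminal glycine, fell 1.61-fold and CUL2 1.45-fold. FEM1C and FEM1B, C-degron receptors like KLHDC2, rose 1.43-fold and 1.27-fold, and APPBP2 rose 1.11-fold.

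Of 10 tested BTB-kelch genes with other names, 6 fell and 2 rose, or 80.0% beside the 73.4% of protein-coding genes, with a median of -0.50. KEAP1 fell from 92.1 ± 1.39 to 61.7 ± 2.30 CPM (SD, n = 3 each), or 1.49-fold (adjusted p = 1.86e-08). KBTBD6, an adaptor that limits RAC1 signalling, fell 2.78-fold and ENC1, an actin-binding protein, 1.27-fold. IVNS1ABP, which binds the influenza NS1 protein and actin, rose 1.74-fold (adjusted p = 6.02e-10).

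Other BTB adaptors of CUL3 numbered 21 tested, of which 8 fell, 4 rose and 9 passed in neither direction (57.1% called, 73.4% over protein-coding genes), with a median of -0.07. BTBD2 fell 2.08-fold, RHOBTB2 2.67-fold and BTBD1 by 0.68 on the log2 scale, while KCTD7, KCTD13 and KCTD5 rose 1.31-fold, 1.40-fold and 1.14-fold. Of 8 tested Kelch-repeat proteins outside both families, 3 rose and 2 fell, or 62.5% beside the same 73.4%, with a median of 0.06. HCFC1, a chromatin cofactor of cell growth, fell 1.64-fold, and LCMT2, which modifies tRNA, 1.27-fold. FBXO42, ATRN and RABEPK rose 1.65-fold, 1.54-fold and 1.41-fold.

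Of 23 tested substrates and partners reported for the family, 9 rose and 11 fell, with a median of -0.10. That is 87.0% called, where 73.4% of protein-coding genes were, 32.1% higher and 41.4% lower. The mitotic partners of KLHL21, KLHL13, KLHL18 and KLHL22 were lower, among them BIRC5 (6.03-fold), CDCA8 (5.85-fold) and PLK1 (4.63-fold), each with an adjusted p of 1.30e-14 or smaller. WNK4, the kinase degraded by KLHL3, rose from 2.10 ± 0.613 to 8.84 ± 1.26 CPM (SD, n = 3 each; log2 fold change 2.06, SE 0.21, adjusted p = 1.51e-07). WNK1 had a log2 fold change of -0.08 (adjusted p = 0.11). Of the targets of KLHL25, EIF4EBP1, which encodes 4E-BP1, rose by a log2 fold change of 0.58 (adjusted p = 4.42e-09) and ACLY fell by 0.98 on the log2 scale (adjusted p = 6.76e-13). The targets of KLHL20 went in both directions. ULK1 rose 1.56-fold and DAPK1 by a log2 fold change of 0.40 (adjusted p = 0.00212), while PML fell by 0.73 (adjusted p = 4.13e-07). SEC31A, the target of KLHL12, rose by a log2 fold change of 0.38 (adjusted p = 1.64e-06). Also on the list, PPP2R5B rose by 0.74 and PEF1 fell by 0.60 on the log2 scale. Protein levels and ubiquitination were not measured.

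**Figure D5:**
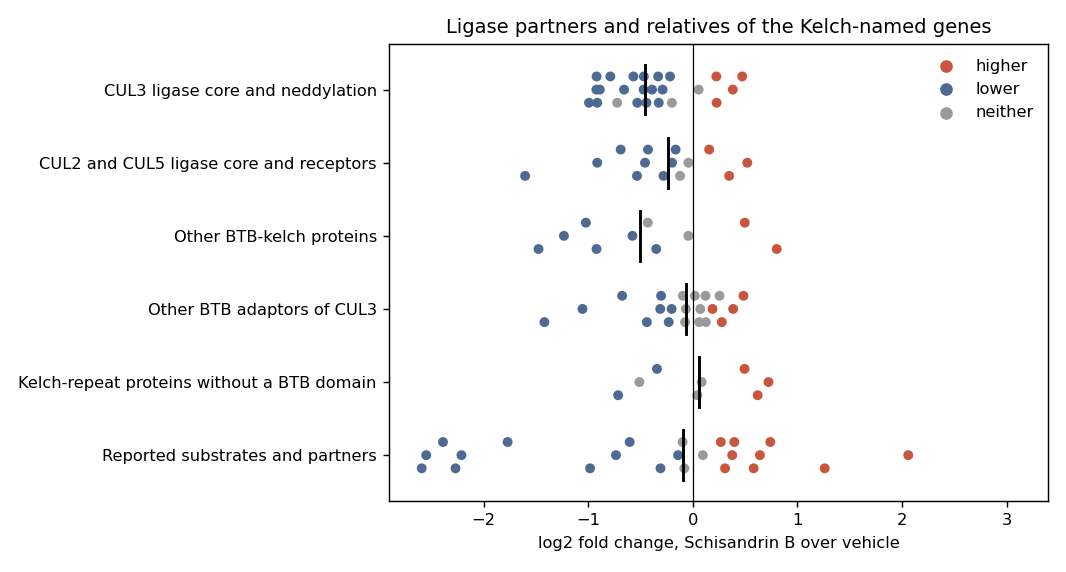
Log2 fold change (Schisandrin B over vehicle) of the tested genes of 6 lists of ligase partners and relatives; each point is a gene, red and blue mark genes higher and lower at an adjusted p below 0.05, grey those in neither direction, and the bar is the list median. The list of the CUL3 core and neddylation, which includes the COP9 signalosome, has a median of -0.46, and the substrates run from -2.59 to 2.06.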

How the data were processed

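The deposited table gives, per the file headers, whole-number counts per Ensembl gene for each library, FPKM deposited by the authors, and the authors' own fold (ratio), log2 fold change and p-values, by a test that no source used here names. For the tested members the authors' log2 fold changes match those of the DESeq2 run made here, at 9.41 for KLHDC7B and 1.80 for KLHL29 in both. The 2 are therefore not separate evidence. Builds named in the submitters' processing notes are GRCh38 and mm10. No aligner, counter or strand setting is named in any source used here. FPKM were used for levels between genes and as a check.

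Counts were fitted on the whole table in R 4.3.3 with edgeR 4.0.16: filterByExpr (0.693 CPM in 3 libraries; 15773 genes kept), TMM, robust quasi-likelihood F-test, two-sided, Benjamini-Hochberg, threshold 0.05. SE is the log2 fold change over the root of F. The method was tested on simulated data in which only a small share of genes changed. In the real data 70.2% of genes were called, so that test does not cover scaling or false calls where most genes move. Within groups, library pairs differed beyond sampling noise (chi-square per gene 3.58 to 5.83). Deviations from the group means correlated at 0.0337, -0.0527 and -0.0113 between same-numbered libraries, which were not paired.

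Members, lists and motifs were chosen with earlier results of these data known. Full values were given for KLHDC7B, for members past the threshold with at least 2-fold and 2 CPM, and for the 3 with the highest mean FPKM. KLHL13, KLHL3 and KLHL11 were added after their values were seen, as were list genes other than up to 3 per list and direction with the smallest adjusted p. Alternatives were RLE, upper-quartile and library-total scaling, no filter, a stricter filter of 5 CPM, the tests of DESeq2 1.42.0 and limma 3.58.1 (voom, and log2 FPKM with a pseudocount of 0.1), a replicate block, a threshold of 0.01 and each library left out. Figures used matplotlib 3.10.9.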

Additional observations from a re-analysis of the deposited data

How the results depend on the processing

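Calls of family members were stable in most settings. Over 16 alternative settings, 15 of the 29 tested members other than KLHDC7B kept their direction and their side of the threshold throughout, and 435 of 461 member values did. Of the others, 17 lost a call, 7 gained one and 2 changed sign. The sign changed for KLHDC2 (0.028) and KLHL8 (0.048) in limma on log2 FPKM, both uncalled there. The cause of the difference between counts and FPKM was not tested. With 1 library left out, members called higher ran from 10 to 13 and lower from 12 to 14. The ratio of KLHDC7B was 721 by library totals and 637 to 741 with 1 library left out. These ratios rest on 2 or 3 vehicle counts, and their 95% intervals with 1 library left out reached from 176 to 6122. The gene was chosen for this rise, so the narrow range of ratios is no support for it. The fitted log2 fold change of KLHDC7B depended more on the method. It was 9.28 in the main fit, 8.85 in limma voom and 6.31 in limma on log2 FPKM, and at most 9.41 over the 16 settings. With a replicate block the calls were 11 higher and 13 lower, as without it, and each of the 29 members kept its call.

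Small lists moved more. BTB adaptors of CUL3 called higher numbered 2 without a filter, 7 with at least 5 CPM, 2 in DESeq2 and 2 to 4 with 1 library left out (2 without vehicle replicate 3). CUL3 core genes called higher numbered 1 in DESeq2 and 2 in FPKM. Kelch-repeat proteins called lower numbered 1 with at least 5 CPM, 1 in DESeq2, 1 at a threshold of 0.01, 1 in FPKM and 1 to 3 with 1 library left out (1 without Schisandrin B replicate 1). Depth limits the low members, where a few counts decide a value.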
